A study of Mus musculus with 2 samples.

Results

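Natural killer (NK) cells without CD3 RNA were examined in 2 droplet single-cell libraries made from mouse liver tumours. A barcode was chosen by its RNA: it held at least 2 UMIs (unique molecular identifiers, each standing for 1 captured RNA molecule) summed over the NK receptor genes Ncr1, Klrb1c, Klre1, Klra4, Klra7 and Klra8, and no UMI of the CD3 genes Cd3d, Cd3e or Cd3g. It also held at least 200 genes, at most 20% mitochondrial UMIs, and either at most 1 keratin UMI (Krt8 plus Krt18) or keratin at under 0.1% of its UMIs. The rule found 56 of 17473 barcodes, 10 in the shCtrl library and 46 in the shSrsf10 library. The shCtrl library came from the tumours of mice whose genotype is labelled WT, and the shSrsf10 library from tumours of mice labelled shSrsf10, the name of a short hairpin RNA against the splicing factor gene Srsf10. By its title the study is on how targeting this factor in hepatocellular carcinoma bears on tumour immunity. Strain, age, the number of mice pooled, the gate of the flow sort, and which cells or vector carried the hairpin were not given in the sources used here. Each group is 1 library, so no comparison below has a replicate check or a test, and every interval is a 95% interval for counting error only.

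NK cells are innate lymphocytes that kill infected or transformed cells without a rearranged antigen receptor. They weigh signals from activating receptors, which work through the adaptor proteins DAP12 (Tyrobp), FcRγ (Fcer1g) and DAP10 (Hcst), against signals from inhibitory receptors that read MHC class I on the target cell. Killing is carried out by perforin and granzymes, while chemokines such as XCL1 and CCL5 draw in dendritic and T cells. In the mouse liver, circulating NK cells that depend on Eomes lie beside a resident population of type 1 innate lymphoid cells (ILC1) that carry Itga1 and Cxcr6.

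The members were small in RNA. The 10 shCtrl members held 11937 UMIs in all, with a median of 1204 per cell (741 to 1863), and the 46 shSrsf10 members held 66596, with a median of 1178.5 (522 to 7014). Levels below are these sums scaled as CPM (counts for each 1e+06 UMIs of the group), so 1 UMI is worth 83.8 CPM in the shCtrl members and 15.0 CPM in the shSrsf10 members. A count of 0 allows a level of up to 251 CPM and 45.05 CPM in them. The libraries shared 67 barcode sequences, and 0 of the members were among them.

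Few cells with killer receptors had exactly 1 CD3 UMI, but more had 2 or 3. Of the shSrsf10 cells with at least 2 receptor UMIs, 46 had no CD3 UMI, 2 had exactly 1 and 19 had 12 or more. In shCtrl the numbers were 10, 2 and 10. With 2, 3 and 4 CD3 UMIs there were 6, 9 and 4 cells in shSrsf10 and 2, 2 and 1 in shCtrl. Whether some members are T cells whose CD3 RNA was missed was not tested. The other limit of the rule had cells on both sides of it: with no CD3 UMI, 15 shCtrl and 13 shSrsf10 barcodes held 1 receptor UMI and stayed outside, and 6 and 6 held exactly 2 and were inside. The highest receptor sum was 12 UMIs in shCtrl and 21 in shSrsf10. Tyrobp stood at 3256 CPM in the shCtrl and 611 CPM in the shSrsf10 barcodes with 1 receptor UMI. The deepest of these barcodes held 9384 of their 33472 UMIs in shCtrl and 25686 of 58939 in shSrsf10, so these levels lean on single barcodes.

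**Figure D1:**
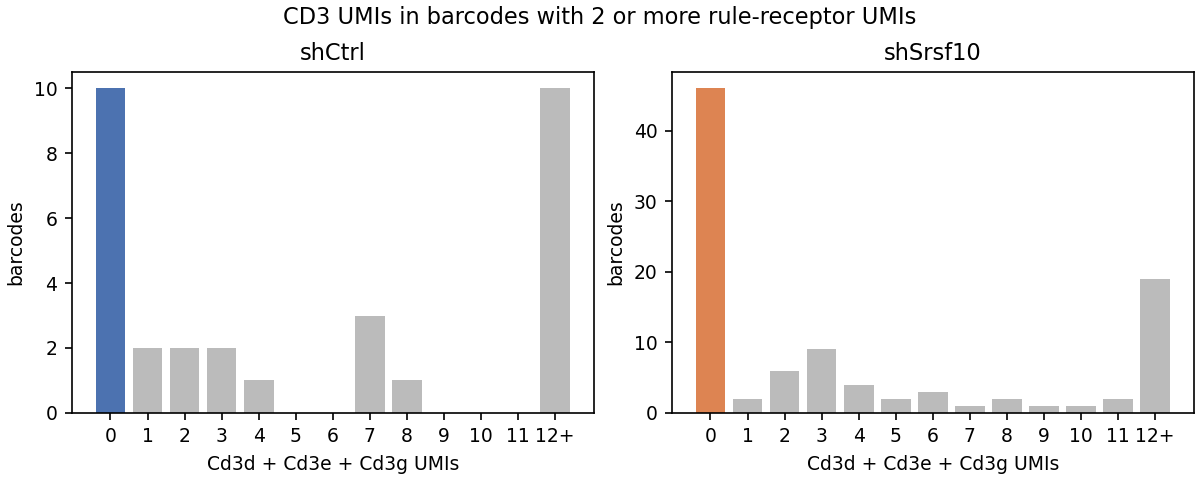
Number of barcodes with at least 2 receptor UMIs (vertical axis) by their summed Cd3d, Cd3e and Cd3g UMIs (horizontal axis, the last bar collecting 12 or more), in shCtrl and shSrsf10. The bars at 0 are the 10 and 46 members, and the next bar, at 1 CD3 UMI, holds 2 barcodes in each library.

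Cells with at least 2 receptor UMIs and at least 2 CD3 UMIs, here called killer-receptor T cells, numbered 19 and 50 and serve as the closest comparison. They had median depths of 2969 and 2599 UMIs, above those of the NK members in both libraries. A broader comparison was made with 79 shCtrl and 976 shSrsf10 CD8 T cells that held no UMI of a rule receptor, at median depths of 2785 and 2756 UMIs.

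The label was checked on the markers that the rule did not read. Tyrobp had UMIs in 9 of 10 shCtrl and 45 of 46 shSrsf10 members, at 4105 and 4445 CPM, where the CD8 T cells stood at 44.98 and 61.2 CPM and the keratin-rich tumour barcodes at 12.2 and 13.4 CPM. Eomes, the T-box factor of circulating NK cells, had 5 UMIs in 4 of 10 and 13 UMIs in 10 of 46 members, or 419 and 195 CPM, against 26.6 and 25.1 CPM in the killer-receptor T cells and 6.43 and 8.01 CPM in the CD8 T cells. Both markers were thus higher in the members than in either T cell comparison, in both libraries. Cd8a, Cd8b1, Cd4 and Cd5 had 0 UMIs in the members of both libraries. RNA of the T cell receptor β constant genes Trbc1 or Trbc2 was present, in 4 of 10 and 30 of 46 members, while Trac, the α constant gene, had UMIs in 0 of 10 and 3 of 46. Trbc1 and Trbc2 are near-identical copies between which reads can be split.

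Apart from tumour and T cell RNA, markers of other cells were mostly low in level. At least 1 UMI of the T cell markers was found in 6 of 10 and 34 of 46 members, and at least 2 UMIs in 2 of 10 and 19 of 46. At least 1 UMI of the dendritic cell markers was found in 4 of 10 and 17 of 46. At least 1 UMI of the 12 tumour epithelial and hepatocyte markers was found in 9 of 10 and 32 of 46 members, at a summed 2597 and 3033 CPM. Monocyte and macrophage markers summed to 168 and 165 CPM, dendritic cell markers to 503 and 435 CPM, and mast cell and red cell markers to 0 UMIs in both. B and plasma cell markers gave 1 UMI in each library. Neutrophil markers gave 0 UMIs in shCtrl and 60 in shSrsf10, and 1 shSrsf10 member of 1826 UMIs held 13 of S100a8, 33 of S100a9 and 12 of G0s2. The deepest shSrsf10 member, with 7014 UMIs or 10.5% of that group's total, held 26 of the group's 32 Alb UMIs and 53 of its 75 Apoe UMIs.

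The splicing factor targeted by the hairpin was too sparse to read in these cells. Srsf10 had 1 UMI in the shCtrl and 7 in the shSrsf10 members, 83.8 CPM (2.12 to 467) and 105 CPM (42.3 to 217). In the keratin-rich tumour barcodes it stood at 45.9 CPM in shCtrl and 20.1 CPM in shSrsf10, the lower level being in the library named for the hairpin. At the depth of the NK members a difference of that size was not detectable.

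NK members made up a larger part of the shSrsf10 library than of the shCtrl library, and T cells did too. Of the barcodes that passed the gene and mitochondrial limits, 10 of 9542 in shCtrl were members, or 0.105% (exact interval 0.0503 to 0.193), and 46 of 7486 in shSrsf10, or 0.614% (0.450 to 0.819). That is 5.86-fold more (2.96 to 11.6). Over the same denominators the killer-receptor T cells stood 3.35-fold higher (1.98 to 5.68), all T cells 7.12-fold and CD8 T cells 15.7-fold. Set against T cells, the NK shares had overlapping intervals: NK members were 2.92% (1.41 to 5.30) of NK plus T cells in shCtrl and 2.41% (1.77 to 3.21) in shSrsf10. Against killer-receptor T cells alone they were 34.5% (17.9 to 54.3) and 47.9% (37.6 to 58.4), again with intervals that overlap.

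The size of the difference between the libraries depended on what the members were counted against. Among barcodes low in keratin, NK members were 0.467% in shCtrl and 1.52% in shSrsf10, a 3.25-fold difference (1.64 to 6.42). Among barcodes with a UMI of Ptprc, the leukocyte gene for CD45, they were 5 of 509 and 28 of 1641, a 1.74-fold difference (0.674 to 4.48) whose interval holds 1. The sort and the share of tumour cells loaded set these denominators, and their part in the difference was not tested. With at least 3 receptor UMIs asked for, 4 shCtrl members remained, and the fold over all quality barcodes was 12.7.

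Most rule receptors lie together in the NK gene complex. On GRCm38, Klrb1c (NK1.1; chromosome 6, 128778485 to 128789215, minus strand), Klre1 (129577905 to 129585827, plus), Klra4 (Ly49D; 130043731 to 130067271, minus), Klra8 (Ly49H; 130115226 to 130129898, minus) and Klra7 (Ly49G; 130218605 to 130233322, minus) span 1.45 Mb. Ncr1, the gene of the activating receptor NKp46, lies apart on chromosome 7 (4337724 to 4345164, plus).

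Their levels chose the members and are given as a description. The activating receptor Ly49D gene Klra4 had the most UMIs in shSrsf10, 67 in 27 cells (0 to 6 per cell, median 1; 1006 CPM), and 10 in 6 shCtrl cells (838 CPM). Klra8 (Ly49H, which binds a viral ligand) had 42 UMIs in 21 and 4 in 3 cells, or 631 and 335 CPM. The inhibitory receptor gene Klra7 had 19 UMIs in 13 and 3 in 2 cells, at 285 and 251 CPM. The counts were spread over the shSrsf10 members, and no single cell held more than 21.1% of the UMIs of any of the 6 rule receptors there. The 3 Ly49 genes are close copies of one another and of further Klra genes, so reads may have been split between them.

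The other rule receptors were similarly scattered. Klrb1c, the classical NK1.1 marker, had 36 UMIs in 27 shSrsf10 and 10 in 6 shCtrl cells (541 and 838 CPM). Klre1, a lectin receptor that pairs with Klri1 or Klri2, had 40 UMIs in 29 and 6 in 5 cells (601 and 503 CPM). Ncr1 had 19 UMIs in 13 and 3 in 2 cells (285 and 251 CPM). The killer-receptor T cells held Klre1 too, at 719 CPM in shCtrl and 441 CPM in shSrsf10, as well as Klra7, with 1 and 44 UMIs, and Klrb1c, with 3 and 16. Klra8 had 0 UMIs in the killer-receptor T cells of both libraries, and Ncr1 had 0 and 3.

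A member usually carried several different receptors. In shSrsf10, 4 members held 1 of the 6 rule receptors, 14 held 2, 17 held 3, 8 held 4 and 3 held 5. In shCtrl the numbers were 2, 4, 3, 0 and 1. Ly49 combinations varied as well: 9 shSrsf10 members had none of Klra4, Klra7 and Klra8, 16 had 1, 18 had 2 and 3 had all of them. No member had UMIs of all 6 receptors. At a median depth of 1204 and 1178.5 UMIs per cell, a receptor without a UMI is not shown to be silent.

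**Figure D2:**
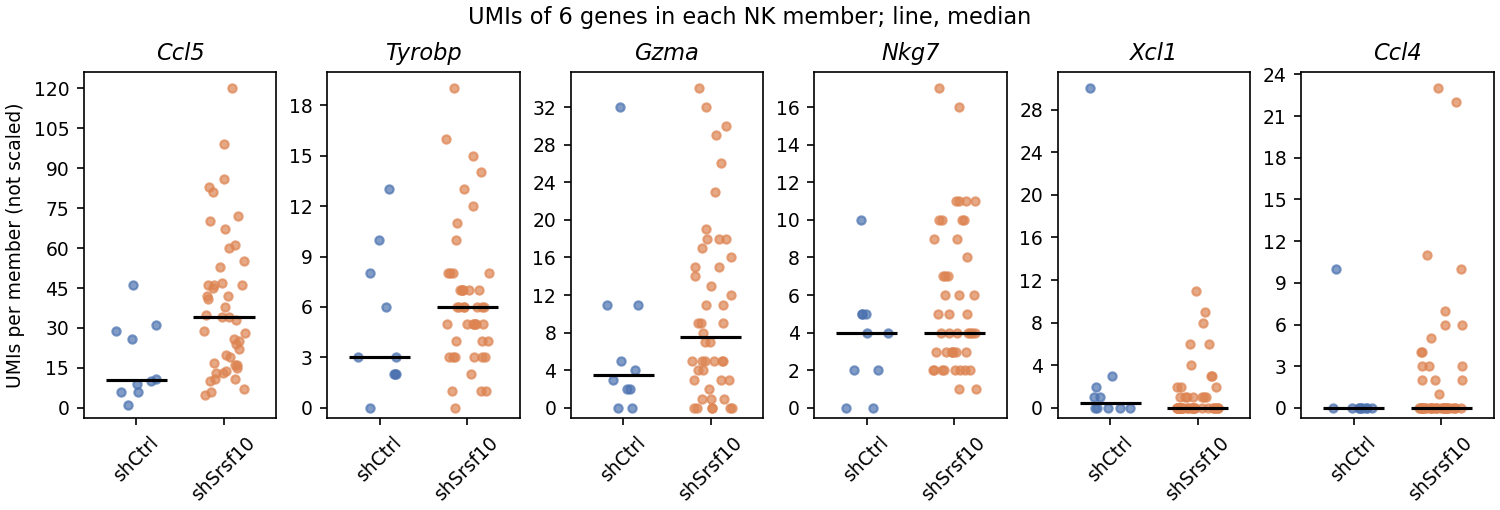
UMIs per member (vertical axis, not scaled to depth) of 6 genes in shCtrl and shSrsf10, each point 1 cell and the line the median. Ccl5 was found in every member, from 1 to 46 UMIs in shCtrl and 5 to 120 in shSrsf10, whereas Xcl1 was at 0 in most shSrsf10 members and at 30 in a single shCtrl cell.

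Comparing NK members with killer-receptor T cells in the same shSrsf10 library, 266 of 1546 measured genes stood at least 1.5-fold higher in CPM in the NK members, which is 17.2% of them, and 484 stood at least 1.5-fold lower, which is 31.3%. A measured gene had at least 20 UMIs over both groups, and the rule's own genes were left out. The T cells held 199452 UMIs and the NK members 66596, so a gene could be measured through its T cell counts alone. List counts and medians below are therefore descriptions. The median log2 ratio over these genes was -0.13, so the ratios below are centred slightly under 0. The groups differed in depth, with a median of 1178.5 UMIs per NK member and 2599 per T cell, and in cell cycle, with at least 3 UMIs of S phase and mitosis genes (Hmgb2 and Tubb5 left out) in 1 of 46 NK members and 14 of 50 T cells. RNA of other cells differed too: the 12 tumour epithelial markers summed to 3033 CPM in the NK members and 1765 CPM in the T cells, the 10 monocyte and macrophage markers to 165 and 1284 CPM, and the 10 dendritic cell markers to 435 and 1720 CPM. The 38 T cells with up to 5000 UMIs held 86564 UMIs, so a few large cells carried much of the T cell total. The excess of lower genes was absent without cycling cells and small without cells over 5000 UMIs, with the counts given at the end. The part of these differences in the ratios below was not tested beyond the values given beside them. The same 46 members enter the comparison between libraries further down.

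The signalling adaptors Tyrobp and Fcer1g were among the genes that stood highest in the NK members over the T cells. Tyrobp (chromosome 7, 30413760 to 30417585, plus strand) encodes DAP12, the adaptor of Ly49D and Ly49H. It had 0 to 13 UMIs per shCtrl member (median 3) and 0 to 19 per shSrsf10 member (median 6). Its level was 4445 CPM in the shSrsf10 NK members and 697 CPM in the killer-receptor T cells, a log2 ratio of 2.67 (2.38 to 2.97), with UMIs in 45 of 46 against 14 of 50 cells. In shCtrl the levels were 4105 and 53.3 CPM, a log2 ratio of 6.27 (4.82 to 8.20). After thinning each cell to 1000 UMIs, which leaves 6 and 27 NK members, Tyrobp was found in 66.7% and 96.3% of NK members and in 5.26% and 29.2% of killer-receptor T cells. In the shSrsf10 T cells, 76 C1qb UMIs lay in 2 cells. Without cells holding such RNA of other lineages the shSrsf10 log2 ratio of Tyrobp was 3.13.

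Fcer1g (chromosome 1, 171229572 to 171234365, minus strand) encodes the adaptor of NKp46 and of the Fc receptor CD16. It had 0 to 6 UMIs per shCtrl member (median 1.5) and 0 to 10 per shSrsf10 member (median 3). Its levels in shSrsf10 were 2493 CPM in NK members and 567 CPM in killer-receptor T cells, a log2 ratio of 2.14 (1.78 to 2.50). In shCtrl they were 1843 and 53.3 CPM, a log2 ratio of 5.11 (3.55 to 7.11). Both libraries thus had the gene higher in the NK members. Over all alternatives tried the shSrsf10 ratio lay between 1.61 and 2.53.

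The remaining receptors and adaptors were less uniform. Hcst, which lies beside Tyrobp on the opposite strand of chromosome 7 (30417712 to 30419854) and encodes the DAP10 adaptor of NKG2D, was at 1006 CPM in the shSrsf10 NK members and 577 CPM in the T cells (log2 0.80, 0.35 to 1.25). Klrk1, the gene of NKG2D itself, was at 556 and 271 CPM (log2 1.04, 0.39 to 1.67). In shCtrl each had 2 UMIs in the NK members, and their log2 ratios over the T cells were -1.74 (-4.83 to 0.20) for Hcst and -0.05 (-3.24 to 2.10) for Klrk1. Cd247, the CD3ζ adaptor used by T and NK cells alike, was lower in the NK members (log2 -1.09), at 120 against 256 CPM. Of 6 measured activating receptors and adaptors, 3 were at least 1.5-fold higher and 2 lower, with a median of 0.58. Among the lectin receptors outside the rule, Klrb1b had 19 UMIs in NK members and 3 in T cells (log2 4.25, 2.48 to 6.65), Klri2 had 23 and 10 (2.78, 1.66 to 4.02), and the Ly49 gene Klra9 had 15 and 8 (2.49, 1.16 to 3.93). Klra1, the other Ly49 gene measured outside the rule, leaned the other way with 2 and 18 (-1.59, -4.74 to 0.48). In shSrsf10 the lectin list had 3 of 5 measured genes higher, 0 lower and a median of 1.04. Klrb1b and Klri2 were measured mainly through their NK counts, so this tally is a description only. In shCtrl 1 lectin gene was measured, and it was lower (-1.10, with an interval that holds 0). The shSrsf10 lectin median was -0.28 in the 14 members without T cell receptor constant RNA, in which Klrk1 (-0.41) and Hcst (-0.18) were below the T cells.

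**Figure D3:**
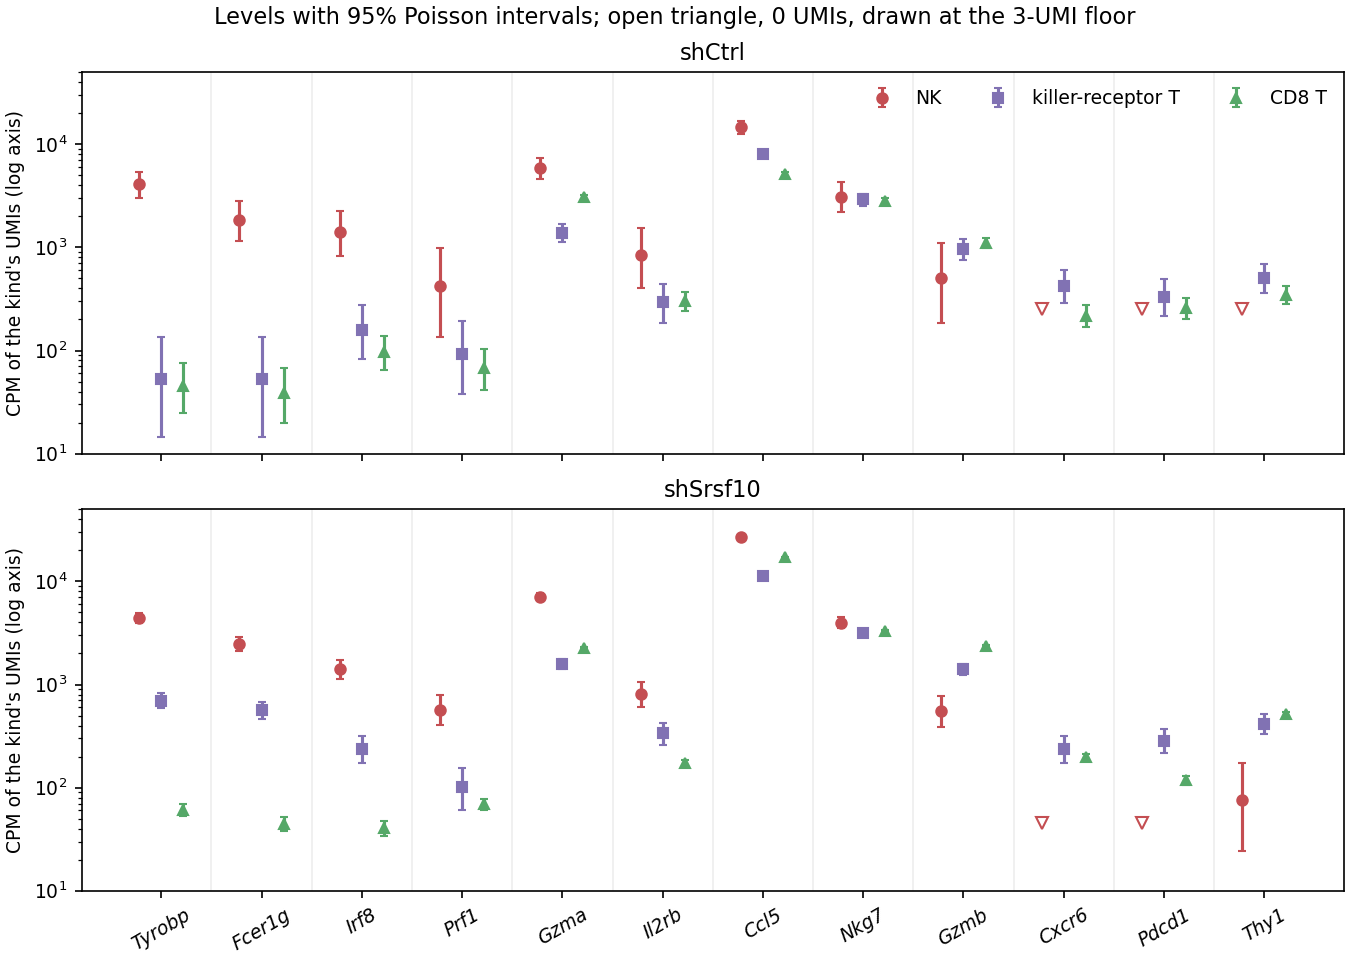
Level in CPM on a log axis of selected genes in NK members, killer-receptor T cells and CD8 T cells of each library, with 95% Poisson intervals as error bars. An open triangle marks 0 UMIs, drawn at the level of 3 UMIs. Tyrobp and Fcer1g stand highest in the NK members in both libraries, at 4105 and 4445 CPM for Tyrobp.

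Perforin and granzyme A were higher in the NK members than in the killer-receptor T cells, and granzyme B was lower in shSrsf10. Prf1, the pore-forming protein, had UMIs in 3 of 10 shCtrl and 20 of 46 shSrsf10 members and stood at 571 CPM against 100.3 CPM in the shSrsf10 killer-receptor T cells (log2 2.51, 1.69 to 3.37). Gzma had 0 to 32 UMIs per shCtrl member (median 3.5) and 0 to 34 per shSrsf10 member (median 7.5). Its level was 7088 CPM against 1574 CPM in the T cells (log2 2.17, 1.96 to 2.38). In shCtrl the log2 ratios of Prf1 and Gzma were 2.17 (0.17 to 4.04) and 2.08 (1.62 to 2.53), the same direction in the other library. Gzmb went the other way, with 556 CPM in the shSrsf10 NK members and 1399 CPM in the T cells (log2 -1.33, -1.87 to -0.83), and its shCtrl ratio of -0.93 had an interval that holds 0 (-2.42 to 0.26). After thinning, Gzma was found in 83.3% and 77.8% of the NK members, in 5 of 19 and 12 of 48 killer-receptor T cells and in 44.4% and 48.3% of CD8 T cells, and Gzmb in 50.0% and 33.3% against 52.6% and 39.6%.

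The rest of the killing machinery was mixed. Nkg7, a granule membrane protein, had 0 to 10 UMIs per shCtrl member (median 4) and 1 to 17 per shSrsf10 member (median 4), and stood at 3964 against 3164 CPM (log2 0.33, 0.11 to 0.53). Ctsw, a granule protease, was at 736 and 396 CPM (log2 0.89). Sytl3, which takes part in granule release, was at 676 and 120 CPM (log2 2.49, 1.74 to 3.27), and Serpinb6b, of a family of granzyme inhibitors, at 556 and 241 CPM (log2 1.21, 0.55 to 1.86, but -0.24 without T cell receptor RNA). Besides Gzmb, the granzyme genes Gzmc, with 1 UMI against 23 (-2.94, -8.31 to -0.32), and Gzmk, with 3 against 19 (-1.08, -3.48 to 0.68), and Cst7, a cystatin, with 9 against 42 (-0.64, -1.86 to 0.42), stood lower. The 23 Gzmc UMIs of the T cells lay in 2 cells, and Gzmc has close copies among the granzyme genes, so its reads may have been split. Gzmk and Cst7 were named after their values were seen, to complete the count. Of 11 measured genes of the killing list, 5 stood at least 1.5-fold higher and 4 lower in the NK members, with a median of 0.33, so the list as a whole did not lie to one side. That median was 0.77 with at least 3 receptor UMIs per cell and -0.24 without T cell receptor RNA.

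Fcer1g, Gzma and Prf1 each stood higher in the members than in the killer-receptor T cells of both libraries. Whether the same members carried them together was not tested. Their promoters are shown from RefSeq (GRCm38.p6, 250 bases before to 50 after the start, 5′ to 3′ on the gene's strand). Matches to a Runx core, TGTGGT, and a T-box core, AGGTGT, are in capitals on either strand (ACCACA and ACACCT are the reverse complements). Runx and T-box factors, among them Runx3, Tbx21 and Eomes, are central regulators of NK cells. The windows are chr1:171234300-171234599 (minus), chr13:113100932-113101231 (minus) and chr10:61297586-61297885 (plus).
Fcer1g: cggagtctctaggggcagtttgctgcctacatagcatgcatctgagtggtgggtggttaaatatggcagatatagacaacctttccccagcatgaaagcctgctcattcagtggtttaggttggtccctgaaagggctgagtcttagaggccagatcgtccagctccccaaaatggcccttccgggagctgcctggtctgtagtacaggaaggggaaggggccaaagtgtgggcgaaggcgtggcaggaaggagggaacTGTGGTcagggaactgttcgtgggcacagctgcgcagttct
Gzma: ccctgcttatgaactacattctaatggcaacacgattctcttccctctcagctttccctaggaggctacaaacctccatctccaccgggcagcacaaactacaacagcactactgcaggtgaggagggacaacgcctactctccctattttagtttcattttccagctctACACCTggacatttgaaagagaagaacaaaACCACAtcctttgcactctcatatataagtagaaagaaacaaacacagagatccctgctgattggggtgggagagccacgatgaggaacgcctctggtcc
Prf1: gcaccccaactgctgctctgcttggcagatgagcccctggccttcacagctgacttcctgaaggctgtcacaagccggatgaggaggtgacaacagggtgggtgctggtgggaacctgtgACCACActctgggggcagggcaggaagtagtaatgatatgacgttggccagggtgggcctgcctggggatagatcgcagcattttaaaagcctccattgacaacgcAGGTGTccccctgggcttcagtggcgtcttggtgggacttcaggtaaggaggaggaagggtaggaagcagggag
The Gzma and Prf1 windows each held 1 match to each core, and the Fcer1g window held 1 Runx core and 0 T-box cores. Among 32851 such windows, 16.8% held the Runx core, 13.7% the T-box core and 2.85% both. The motifs do not overlap each other, and a match is a run of letters, not a shown binding site. Tyrobp had no entry in the table.

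Set against the CD8 T cells, the same genes stood apart in the same direction. In shSrsf10 the log2 ratios of NK members over CD8 T cells were 6.18 (5.92 to 6.44) for Tyrobp, 5.81 (5.49 to 6.14) for Fcer1g, 3.06 (2.52 to 3.55) for Prf1 and 1.65 (1.52 to 1.79) for Gzma, which the CD8 T cells also expressed at 2256 CPM. In shCtrl they were 6.51 (5.63 to 7.48), 5.58 (4.50 to 6.73), 2.63 (0.87 to 4.08) and 0.94 (0.57 to 1.29). Gzmb was again lower in the NK members, at -2.09 (-2.60 to -1.63) in shSrsf10. The adaptors thus marked the NK members off from both kinds of T cell. Granzyme A did so by a smaller margin against the CD8 T cells, and by about the same as Fcer1g against the shSrsf10 killer-receptor T cells (2.17 and 2.14).

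Several transcription factors of the NK lineage were higher in the NK members, with low counts. Irf8, a factor of NK maturation as well as of myeloid cells, had 0 to 4 UMIs per shCtrl member (median 1) and 0 to 8 per shSrsf10 member (median 2). It stood at 1411.5 CPM against 236 CPM in the shSrsf10 killer-receptor T cells (log2 2.58, 2.06 to 3.12) and at 1424 against 160 CPM in shCtrl (log2 3.16, 2.00 to 4.35), so the members of both libraries lay close together. Tbx21, the gene of T-bet, had 15 and 12 UMIs (log2 1.90, 0.71 to 3.13), and Runx3 had 14 and 16 (1.39, 0.24 to 2.52). Eomes had 13 and 5, too few to count as measured. Id2, which marks innate lymphocytes and effector T cells, was at 1607 and 1018 CPM (log2 0.66), and in shCtrl its ratio was -0.86 (-2.22 to 0.25). Tox, a factor of exhausted T cells that NK development also uses, had 1 UMI against 25 (log2 -3.06, -8.42 to -0.45), and Batf, a factor of activated T cells, 3 against 50 (-2.48). Of 12 measured factors 6 were higher and 2 lower, median 0.49. In the members without T cell receptor RNA that median was -0.51.

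Chemokine RNA was abundant in the NK members but unevenly spread. Ccl5 was found in all 56 members, with 1 to 46 UMIs in shCtrl (median 10.5) and 5 to 120 in shSrsf10 (median 34). It stood at 26773 CPM in the shSrsf10 NK members and 11266 CPM in the T cells (log2 1.25, 1.16 to 1.34), and at 14660 and 8042 CPM in shCtrl (0.87, 0.62 to 1.11). It is the one chemokine with UMIs in every member. Xcl1, the ligand of the receptor on cross-presenting dendritic cells, was at 946 against 336 CPM in shSrsf10 (log2 1.49, 0.97 to 2.01), with UMIs in 18 of 46 NK members. Ccl4 had UMIs in 17 of 46 members and Ccl3 in 11, and their levels were 1712 and 496 CPM against 892 and 155 CPM. Ltb, a lymphotoxin more typical of T cells, was lower, at 105 against 246 CPM (log2 -1.22). Of 6 measured cytokines and chemokines 4 were higher and 1 lower, median 1.09.

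Most Ccl3 and Ccl4 UMIs lay in the smallest cells. The 16 shSrsf10 members with under 500 genes (median 726 UMIs) held 78 Ccl4 and 28 Ccl3 UMIs, or 6719 and 2412 CPM. The 30 members with at least 500 genes (median 1519.5 UMIs) held 36 and 5, or 655 and 90.9 CPM. Ccl5 was also higher in the small cells, at 42209 against 23515 CPM. With the small cells left out, Ccl3 (log2 -0.78) and Ccl4 (-0.45) lay below the killer-receptor T cells, and the median of the cytokine list was -0.62. What sets the small members apart was not tested.

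Cytokine receptor and early-response genes were more often higher than lower in the NK members. Il2rb, the receptor chain through which IL-15 sustains NK cells, had UMIs in 29 of 46 members and was at 811 against 336 CPM in the T cells (log2 1.27, 0.73 to 1.81). In shCtrl it was at 838 against 293 CPM (1.52, 0.27 to 2.65). Ifngr1 was at 976 against 486 CPM (1.00, 0.53 to 1.47), and Stat4, which carries the IL-12 signal, at 420.4 against 186 CPM (1.18, 0.42 to 1.93). The list had 5 of 9 measured genes higher and 1 lower, median 1.00, and the median was -0.02 in the members without T cell receptor RNA. Among genes that are induced within minutes and also by tissue digestion, 7 of 10 were higher and 0 lower, median 1.03. Examples are Ier2 (435 against 180.5 CPM, log2 1.27), Nfkbia (991 against 471 CPM, 1.07), Jund (270.3 against 115 CPM, 1.23) and Btg2 (856 against 261 CPM, 1.71). Malat1, a nuclear RNA, was also higher, at 1472 against 521 CPM (1.497), and so was Dennd4a (1.99).

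The gene pair of liver-resident ILC1 was not detected in the members. Itga1 or Cxcr6 had a UMI in 0 of 10 shCtrl and 0 of 46 shSrsf10 members, which allows shares of cells with a UMI of up to 30.0% and 6.52%. In killer-receptor T cells the same genes were found in 12 of 19 and 19 of 50, and in CD8 T cells in 31 of 79 and 421 of 976. At 1000 UMIs per cell, Cxcr6 was in 0 of 6 and 0 of 27 NK members and in 36.8% and 20.8% of killer-receptor T cells. A UMI of Itga2, S1pr5, Klrg1 or Cx3cr1, genes of circulating NK cells, was found in 2 of 10 and 12 of 46 members. These calls came from Itga2, in 1 and 8 members, and Klrg1, in 1 and 4, while S1pr5 and Cx3cr1 had 0 UMIs in the members of both libraries. In killer-receptor T cells the 4 genes were found in 0 of 19 and 3 of 50, and in CD8 T cells in 1 of 79 and 146 of 976. Most members held none of the 6 genes, and the interval of the shCtrl share is wide (2.52% to 55.6%).

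Other genes of mature circulating NK cells had few counts. Cma1, a protease of mature mouse NK cells, had 22 UMIs in 12 of 46 shSrsf10 members and 0 in the killer-receptor T cells, at least 21.96-fold higher when 3 counts over the T cell group are taken as the floor. Cma1 was measured only because of its NK counts, so the median of the 4 measured genes of the mature list (1.75) is a description only. It was 0.10 without T cell receptor RNA and -0.22 without cycling cells. Of the 6 measured ILC1 and residence genes, 2 were higher (Itgb1, 345 against 130 CPM, log2 1.41, and Rgs1, 706 against 456 CPM, log2 0.63) and 3 lower, median -0.33, with Cxcr6 at 0 against 47 UMIs (at or below -2.39).

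**Figure D4:**
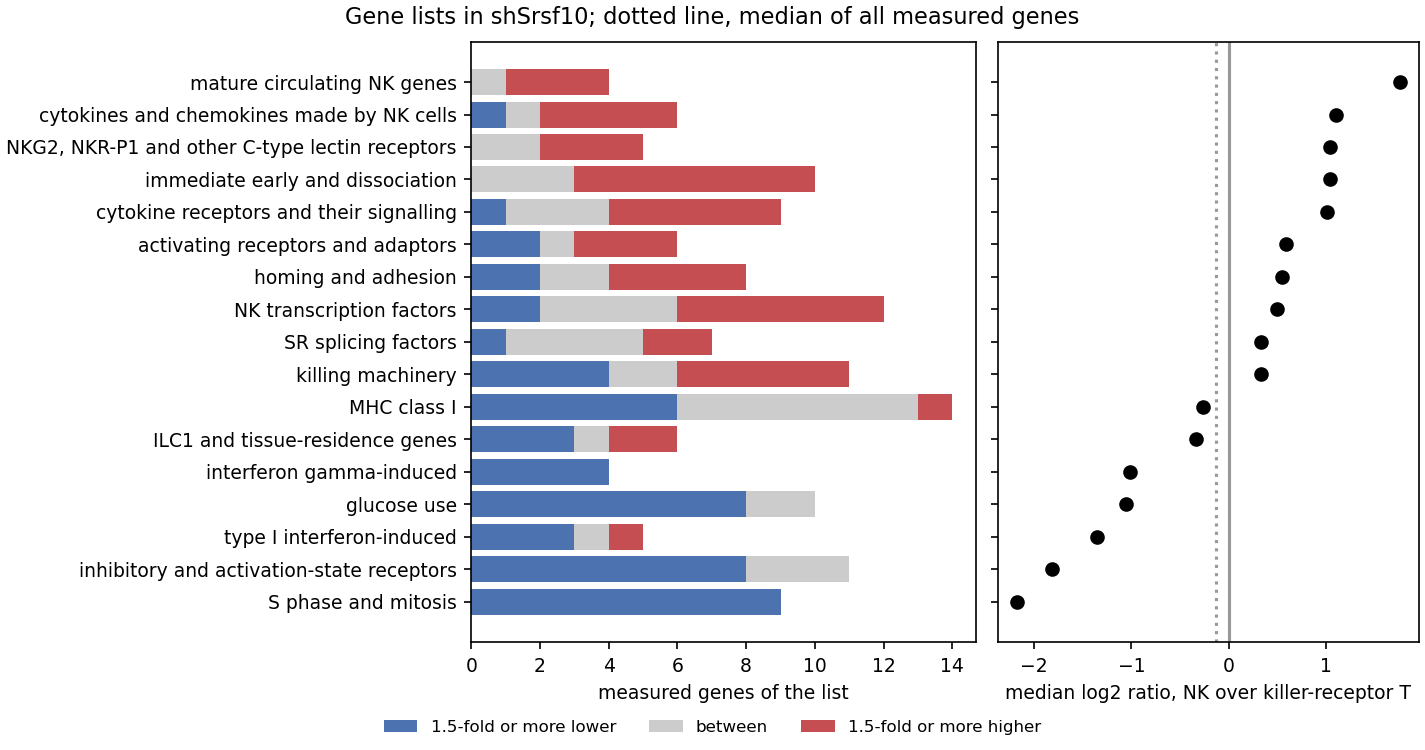
Log2 ratio of CPM in shSrsf10 NK members over killer-receptor T cells by gene list. The left panel stacks the measured genes that stood at least 1.5-fold lower, between, or at least 1.5-fold higher, and the right panel gives each list's median, with a dotted line at the median of all measured genes (-0.13). The early-response list has a median of 1.03 and the S phase and mitosis list of -2.17. The mature NK list (1.75) holds Cma1, measured only through its NK counts.

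Checkpoint and activation receptors of T cells were scarce in the NK members. Pdcd1, the gene of PD-1, had 0 UMIs against 57 in the T cells (log2 at or below -2.67), Tnfrsf4 0 against 66 (at or below -2.88), Lag3 1 against 47 (-3.97), Ctla4 1 against 44 (-3.88) and Icos 2 against 36 (-2.59). In the shCtrl NK members Pdcd1, Tnfrsf4, Lag3, Ctla4 and Icos also had 0 UMIs. Of the 11 measured inhibitory and activation-state receptors 8 were lower and 0 higher, median -1.81. In shSrsf10 these receptors were thus rarer in the NK members than in the T cells beside them. In shCtrl a count of 0 still allows 251 CPM, so the difference there was not detectable for these 5 genes at this depth.

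T cell genes other than CD3 were lower too, a difference tied to the rule. All 11 measured T cell markers were at least 1.5-fold lower, median -2.74. Trac had 3 UMIs against 163 (log2 -4.18), Cd8a 0 against 65 (at or below -2.85), Lat, the adaptor downstream of the T cell receptor, 3 against 79 (-3.14) and Thy1 5 against 83 (-2.47). Trbc1 stood out among them with 43 UMIs in 27 of 46 members, 646 against 1715 CPM (-1.41), while Trbc2 had 25 UMIs in 13 members, 375 against 2738 CPM (-2.87). The 32 shSrsf10 members with T cell receptor constant RNA had a median depth of 1457.5 UMIs and the 14 without it 973.5. Their levels of Tyrobp were 4643 and 3971 CPM, of Gzma 7476 and 6159.6 CPM and of Ncr1 319 and 204 CPM, each with overlapping intervals. Klrk1 was at 703 CPM (484 to 987) with that RNA and 204 CPM (55.5 to 521) without it, also with overlapping intervals. Ccl4, at 1022 CPM (754 to 1355) and 3359.8 CPM (2598 to 4275), and Ccl3, at 277 CPM (147 to 473) and 1018 CPM (622 to 1572), had intervals that do not overlap.

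In shSrsf10, genes of cell division were lower in the NK members. All 9 measured S phase and mitosis genes lay at least 1.5-fold below the killer-receptor T cells, median -2.17. Hmgb2 was at 375 against 1354 CPM (log2 -1.85), Stmn1 at 135 against 501 CPM (-1.89), Tubb5 at 165 against 842 CPM (-2.35), and Birc5 had 1 UMI against 48 (-4.00). Pclaf, a replication factor, had 0 UMIs against 86 (at or below -3.26). With cycling taken as at least 3 UMIs of the list without Hmgb2 and Tubb5, which resting cells also express, 2 of 10 shCtrl and 1 of 46 shSrsf10 NK members and 11 of 19 and 14 of 50 killer-receptor T cells were cycling. Depth enters this count: at 1000 UMIs per cell it was 2 of 6 and 0 of 27 NK members against 8 of 19 and 9 of 48 T cells. The NK shares were below those of the killer-receptor T cells at that depth too, the shCtrl one resting on 6 members. That shCtrl share, 33.3%, lay beside the 34.7% of the shCtrl CD8 T cells. At 500 UMIs per cell the shCtrl counts were 1 of 10 against 2 of 19, or 10.0% and 10.5%. In shSrsf10 they were 0 of 46 against 6 of 50. The NK share was thus lower at both depths in both libraries, but in shCtrl the shares at 500 UMIs nearly matched and all rest on few cells. Phase calls from so few UMIs describe RNA and not division itself.

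In shSrsf10, genes of glucose use were lower in the NK members as well, and interferon-induced genes were lower in part. Of 10 measured glucose genes 8 were lower and 0 higher, median -1.06, with Gapdh at 511 against 1479 CPM (log2 -1.53), Ldha at 375 against 842 CPM (-1.17), Aldoa at 405 against 782 CPM (-0.95) and Pgk1 at 75.1 against 341 CPM (-2.18). Without cycling cells the median of that list was -0.36. All 4 measured interferon γ-induced genes were lower, median -1.02, among them the immunoproteasome gene Psmb8 at 601 against 1018 CPM (-0.76). Of 5 type I interferon-induced genes 3 were lower and 1 higher: Isg15 had 8 against 61 UMIs (-1.35), and Irf7 12 against 12, which at the smaller NK total is a log2 ratio of 1.58. The median of the type I list was -1.35, and -0.26 without T cell receptor RNA. In shCtrl Isg15 had a ratio of 0.07 (-2.34 to 1.84). Ifi27l2a (-2.02) and Ifi27 (-1.74) were also low, as were Selenoh (-2.64) and the ATP synthase gene Atp5a1 (-1.72). Of 14 MHC class I genes 1 was higher and 6 lower, median -0.27.

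Between the libraries, 131 of 482 measured genes stood at least 1.5-fold higher in the shSrsf10 than in the shCtrl NK members (27.2%), and 80 stood at least 1.5-fold lower (16.6%). The median log2 ratio was 0.14. The 10 shCtrl cells held few UMIs, so most ratios are loose: intervals lay wholly above 0 for 27 genes and wholly below for 26. No gene that was lower in shSrsf10 met the rule for naming, which asks for at least 50 UMIs, 10 cells with the gene and no cell with over 25% of them.

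Several genes of the NK program had wide intervals between the libraries that hold 0, while those of Hcst and Id2, given below, lay above 0. Tyrobp differed by a log2 ratio of 0.11 (-0.33 to 0.58), Fcer1g by 0.44 (-0.21 to 1.15), Gzma by 0.27 (-0.09 to 0.66), Nkg7 by 0.35 (-0.15 to 0.89), Prf1 by 0.45 (-0.90 to 2.15) and Irf8 by -0.01 (-0.77 to 0.83). Eomes was at -1.10 (-2.68 to 0.74). All of these intervals hold 0, and those of Prf1 and Eomes also reach past a 4-fold difference in one direction. Equal levels are therefore not shown. Of 8 measured killing genes 2 were at least 1.5-fold higher and 0 lower, median 0.31, and of 4 activating receptors and adaptors 1 was higher and 0 lower, median 0.31. These shares lie near or below the 27.2% of all measured genes.

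Among the named genes, Ccl5 had the narrowest interval that excludes 0. Ccl5 was at 14660 CPM in the shCtrl and 26773 CPM in the shSrsf10 NK members, a log2 ratio of 0.87 (0.64 to 1.10). The ratio was 0.58 with at least 3 receptor UMIs and 0.59 with at least 500 genes. In the killer-receptor T cells of the same libraries it was at 8042 and 11266 CPM and in the CD8 T cells at 5131 and 17119 CPM, so the shSrsf10 library had the higher level in each kind of cell. Xcl1 went the other way, at 3100 against 946 CPM (-1.71, -2.32 to -1.09), but 1 shCtrl cell held 81.1% of its 37 UMIs, and the ratio was 1.82 with at least 3 receptor UMIs and 0.54 without T cell receptor RNA. Ccl4 had its 10 shCtrl UMIs in 1 of 10 cells and 114 shSrsf10 UMIs in 17 of 46 cells (1.03, 0.10 to 2.13). Its log2 ratio was -0.32 with at least 3 receptor UMIs. Without T cell receptor RNA no shCtrl Ccl4 UMI was left, and the value of 2.93 is a lower bound. Xcl1 was lower in shSrsf10 in the killer-receptor T cells (945 against 336 CPM) and the CD8 T cells (1687 against 137 CPM) as well. Of the chemokines, Ccl5 alone was thus carried by all members of both groups.

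Other genes that were higher in the shSrsf10 members had low shCtrl counts. Hcst had 2 UMIs in shCtrl and 67 in 29 shSrsf10 members, 168 and 1006 CPM (log2 2.59, 0.68 to 5.66). With at least 3 receptor UMIs no shCtrl Hcst UMI was left. The log2 ratio there is a lower bound, at least 0.49, with an interval that excludes 0. At 1000 UMIs per cell Hcst was in 16.7% of 6 and 70.4% of 27 members, and in 73.7% and 43.8% of killer-receptor T cells. Id2 had 7 UMIs, 85.7% of them in 1 cell, against 107 in 31 cells (1.45, 0.36 to 2.80). Tumour RNA also carries Id2, which was in 35.7% and 43.6% of keratin-rich barcodes at 1000 UMIs. Itm2b had 1 against 50 UMIs (3.16, 0.62 to 8.50). With at least 3 receptor UMIs, and without T cell receptor RNA, no shCtrl Itm2b UMI was left. Its log2 ratios there are lower bounds, at least 0.20 and at least 0.47, both with intervals that hold 0. Junb had 7 against 88 (1.17, 0.07 to 2.53), and Tpt1, in all members, was at 5026 against 8559 CPM (0.77, 0.38 to 1.18). Eif1 (0.90) and Mir142hg (0.94) had intervals that only just exceed 0, and without T cell receptor RNA their ratios were -0.47 and 3.64.

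MHC class I and maturation genes gave mixed values. H2-D1 was at 1675 against 2973 CPM (log2 0.83, 0.16 to 1.57) and H2-K1 at 2429 against 3799 CPM (0.65, 0.09 to 1.25, but 0.046 with at least 3 receptor UMIs, where its interval holds 0), 2 highly similar class I genes, whereas the list of 8 measured class I genes had 2 higher, 2 lower and a median of -0.13. Ly6c2, a gene of mature NK cells and of monocytes, had 0 UMIs in shCtrl and 48 in 12 of 46 shSrsf10 members. That is at least 2.87-fold higher with 3 counts over the shCtrl group as the floor. Klri2 had 0 against 23 UMIs, at least 1.37-fold higher. S100a9 had 0 against 33 UMIs, all in 1 cell, and describes that cell. Rgs1 had 2 against 47 UMIs (2.07, 0.14 to 5.16).

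Lower in the shSrsf10 members were Jund, at 922 against 270.3 CPM (log2 -1.77, -2.93 to -0.54), and Hmgb2, at 922 against 375 CPM (-1.30, -2.37 to -0.12). Both had 11 UMIs in shCtrl. Hmgb2 is a gene of dividing cells, and by the other genes of that list 2 of 10 shCtrl and 1 of 46 shSrsf10 members were cycling. The 6 measured early-response genes had a median of -0.09. Of the type I interferon genes found, 0 of 15 had enough UMIs to be measured, and of the interferon γ-induced genes 2 had (median -0.23), so the type I response of the NK members could not be compared between the libraries at this depth.

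**Figure D5:**
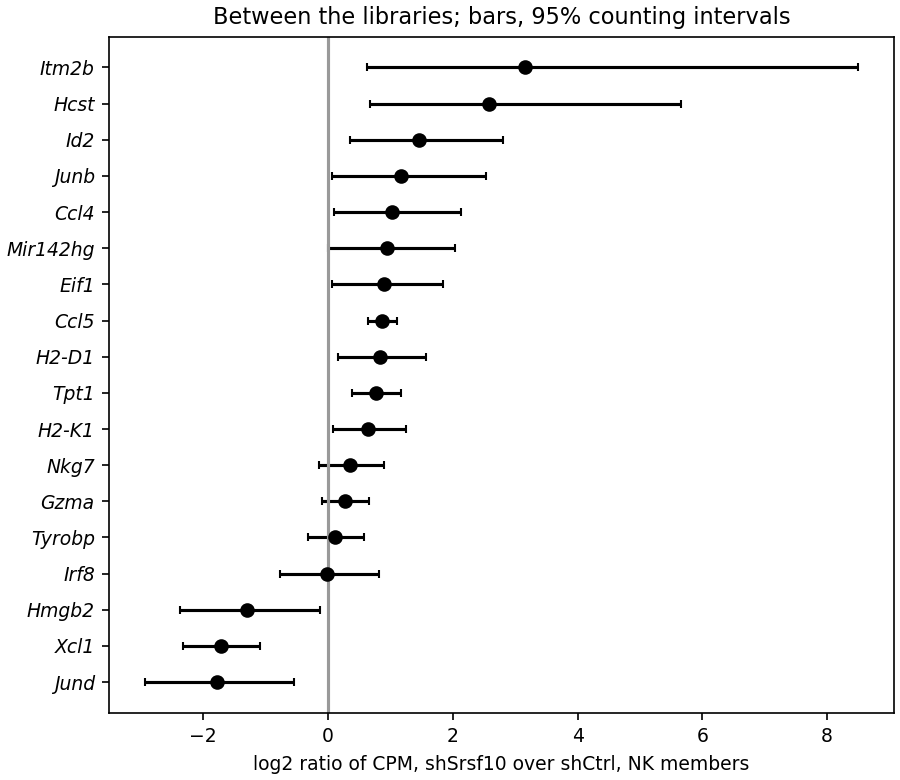
Log2 ratio of CPM in shSrsf10 over shCtrl NK members for the named genes, with 95% counting intervals. Ccl5 (0.87) and Tpt1 (0.77) have the narrow intervals above 0, Tyrobp (0.11) and Irf8 (-0.01) lie at 0, and the wide intervals of Itm2b and Hcst come from 1 and 2 shCtrl UMIs.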

How the data were processed

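Tumour suspensions of 2 mouse groups, 1 library each, were read by 10x droplet sequencing. The deposited matrices give UMI counts as whole numbers without normalization, 1 value per feature and barcode, per the file headers and values. Cell Ranger 6.1.0 and mm10 are named in the submitters' processing notes. The labels' protocols name both a 5′ and a 3′ version 3 kit, and both a tumour digest and a liver suspension, so which was used is unclear. A 3′ or 5′ end count does not scale with gene length. The 9920 shCtrl and 7553 shSrsf10 barcodes are 17 bases long. Of 32285 features 32245 were kept, since 38 symbols have several IDs and the copy with the most UMIs was used.

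UMIs were summed per library and kind of cell and scaled to CPM. Intervals (95%) are exact Poisson for CPM, exact conditional binomial for ratios, Clopper-Pearson for shares and log-normal for folds of shares. PCR copies are removed by UMIs, but cells of 1 library are not replicates. A gene was measured with at least 20 UMIs over both groups and counted as higher or lower at 1.5-fold. A group at 0 was set to 3 counts over the group, giving a bound. To compare shares of cells, cells were thinned to 1000 UMIs (seed 1).

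The members and the 30 gene lists (366 of 370 genes found) were chosen with earlier results of these data known. Beside the markers, rule receptors and list genes (the 4 largest ratios or an interval without 0), genes were named by ratio: 10 per direction with at least 50 UMIs, 10 cells and no cell over 25% of the UMIs, an interval without 0, and no mitochondrial, ribosomal, antigen receptor or sex-linked gene. Values of cell subsets were added after the data were seen. Doublets were not removed, and an alternative left out the barcodes with the highest Scrublet scores (0.8% per 1000 barcodes), since its automatic threshold did not work as a common rule. Ratio intervals were tested on simulated Poisson counts, the law they assume, so that test does not cover uneven spread of a gene over cells. Python 3.11.15, numpy 2.4.6, pandas 2.3.3, SciPy 1.17.1 and scanpy 1.11.5 were used. Gene positions are on GRCm38. One list gene is not reported here.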

Additional observations from a re-analysis of the deposited data

How the results depend on the processing

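Of the values of the comparisons recomputed under alternatives, 371 stayed within 1.5 times or their own interval, 41 moved and 4 turned direction. For named genes these numbers were 1224, 107 and 14. A turn was counted only where the main list median was at least 1.5-fold or the main gene interval excluded 0. Other sign changes are among the values that stayed or moved. With at least 3 receptor UMIs the Ly49 median between libraries went from 0.26 to -0.49 and counts as staying. Nkg7 went from 0.35 to -0.35 there and counts as moved. Many named genes whose main interval between the libraries excluded 0 lost this under some settings. With at least 3 receptor UMIs it was 10 of 15, and without T cell receptor RNA 8 of 14. Without cycling cells it was 8 of 17, centred on the median gene 7 of 18, and with at most 10% mitochondrial UMIs 0 of 18. Against killer-receptor T cells the first 3 of these settings gave 7 of 68, 24 of 65 and 21 of 64. No paired analysis was possible because each group is 1 library. The cause of the shifts was not tested. With at least 3 receptor UMIs the shCtrl share was 0.0419%, the fold between libraries 12.7, the NK over killer-receptor T count of lower genes 285, the killing list median 0.77 and the mature list 0.58, while Ccl4 (-0.32) and Xcl1 (1.82) turned between libraries. Without members holding T cell receptor constant RNA the shSrsf10 share was 0.187% (14 members), cycling there 0%, and the counts between libraries 34 higher and 20 lower with the cytokine median at 1.77. There Eif1 (-0.47) and Xcl1 (0.54) turned. Against killer-receptor T cells the same setting gave medians of -0.24 (killing), 0.10 (mature), 1.39 (cytokines), -0.28 (lectins), -0.025 (cytokine receptors), -0.51 (transcription factors) and -0.26 (type I interferon), and turned Klrk1 (-0.41), Hcst (-0.18), Nkg7 (-0.051), Ltb (0.051), Serpinb6b (-0.24) and Rgs1 (-0.36). With at least 500 genes the cytokine median was -0.62, Ccl3 -0.78 and Ccl4 -0.45. Without RNA of other lineages 303 genes were lower, with medians of 0.037 (killing), 0.85 (cytokines) and 0.47 (cytokine receptors). Without cycling cells the counts were 148 higher and 122 lower, with medians of -0.22 (mature), 0.29 (cytokines), 0.13 (lectins) and -0.36 (glucose), Ccl4 at -0.035 and Tubb5 at 0.32. Without cells over 5000 UMIs, added after the data were seen, they were 130 and 135, with cytokines at 0.48 and glucose at -0.30. A mean over cells in place of summed UMIs gave 0.82 (cytokines) and 0.39 (cytokine receptors). Asking for 50 UMIs gave 39 and 19 genes between libraries and 77 and 164 against the T cells (killing 0.67, activating 1.47), and asking for 10 gave 267 and 197, and 627 and 925 (lectins 2.78). Over all alternatives the NK over killer-receptor T ratio lay between 2.14 and 3.13 for Tyrobp, 2.02 and 3.14 for Prf1, 1.39 and 2.30 for Gzma and 2.09 and 3.02 for Irf8. Depth limits the shCtrl values: with 11937 UMIs in its 10 members, 1 UMI is 83.8 CPM.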
